A study of Mus musculus with 8 samples.

Results

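The 48 genes described here act between the end of DNA replication and the separation of daughter cells, in the G2 phase and in mitosis. They were measured in bone marrow hematopoietic stem cells (HSCs), the rare cells that renew all blood lineages, on 8 Agilent 1-colour arrays with Cy3-labelled total RNA. The members were taken by gene name from the scanner files: 83 of 41174 probes carried one of the 48 names, out of 27745 names on the array. Of the 48 genes, 15 had their best probe above background on fewer than 2 arrays and could not be tested for a difference between genotypes. The mice were of strain B6 and differed at the Nras locus. NrasG12D/G12D HSCs (n = 3) carried 2 mutant alleles, NrasG12D/+ HSCs (n = 3) carried 1, and Nras+/+ HSCs (n = 2) carried none and served as the controls. The G12D substitution locks Nras, a small GTPase of growth factor signalling, in its GTP-bound, active form. It was expressed from the endogenous locus, and the sources used here give no promoter, Cre driver, age or sort gate. Nor do they say that the samples of a genotype are different mice, and a p-value then speaks only of the variation among these arrays. In bulk RNA, fewer cells in G2 or mitosis and less RNA per cell cannot be told apart.

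Entry into mitosis is driven by the kinase CDK1 bound to a B-type or A-type cyclin, after CDC25 phosphatases remove an inhibitory phosphate. Polo and Aurora kinases then build the spindle, the spindle checkpoint holds the cell until every chromosome is attached, and the anaphase-promoting complex (APC/C) with its activator Cdc20 triggers chromosome separation. Most of these genes are transcribed in G2 by FOXM1 and by B-MYB with the MuvB complex, which acts through a promoter element named CHR. CCAAT is a separate element of many such promoters. Adult HSCs are mostly quiescent, so few of them are in G2 or mitosis at any time.

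Levels below are log2 processed signals relative to the 75th percentile of the array, set to 0, and compare arrays for the same probe only. "Above background" means that Feature Extraction marked the spot as well above background. The arrays had median processed signals of 3.09 to 6.75 and no saturated spot. The lowest level that was still above background lay between -5.13 and -3.70, depending on the array, so that a dim value has no fixed meaning across arrays. The place of the tested Nras probe relative to the mutation was not looked up, and it was not read as a measure of the mutant allele. This probe stood at -4.53, -4.16 and -4.13 in NrasG12D/G12D HSCs, -3.98, -3.31 and -2.77 in NrasG12D/+ HSCs and -2.79 and -2.18 in Nras+/+ HSCs. Of the stem cell markers, Ly6a (Sca-1) and Slamf1 (CD150) were above background on all 8 arrays, while Kit, the receptor for stem cell factor, was above background on 1. Ly6a stood at -1.34, 1.28 and -0.73 in NrasG12D/G12D HSCs. It stood at -1.73, -1.07 and -0.96 in NrasG12D/+ HSCs, below both Nras+/+ samples at 0.87 and 1.25 (adjusted p = 0.811 in limma). Slamf1 levels overlapped between the genotypes. Genotype overlapped with slide: slide 1 held both Nras+/+ arrays and NrasG12D/+ replicates 1 and 2, and slide 2 held NrasG12D/+ replicate 3 and the 3 NrasG12D/G12D arrays.

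Fewer of the mitotic probes were above background in NrasG12D/G12D HSCs than in either other genotype. Of the 83 probes, 26, 21 and 27 were above background in the 3 NrasG12D/G12D samples, 36, 40 and 32 in the 3 NrasG12D/+ samples, and 32 and 33 in the 2 Nras+/+ samples. These counts did not overlap between NrasG12D/G12D HSCs and the other groups. As shares they were 29.7% ± 3.87 in NrasG12D/G12D HSCs, 43.4% ± 4.82 in NrasG12D/+ HSCs and 39.2% ± 0.852 in Nras+/+ HSCs (SD, n = 3, 3 and 2). Over all 41174 probes the shares were 28.5% ± 2.44 in NrasG12D/G12D HSCs, 37.0% ± 7.55 in NrasG12D/+ HSCs and 33.2% ± 3.67 in Nras+/+ HSCs. By sample the shares of all probes were 30.1, 25.7 and 29.6% in NrasG12D/G12D HSCs, 40.6, 42.0 and 28.3% in NrasG12D/+ HSCs and 35.8 and 30.6% in Nras+/+ HSCs. Here too NrasG12D/G12D HSCs lay below Nras+/+ HSCs without overlap, and NrasG12D/+ replicate 3 was the one sample of another genotype that fell within the NrasG12D/G12D range. The mitotic probes thus lay 1.18, -0.38 and 2.91 percentage points from the whole array in NrasG12D/G12D HSCs, 2.76, 6.17 and 10.2 points in NrasG12D/+ HSCs and 2.81 and 9.20 points in Nras+/+ HSCs. Set against the whole array in this way, NrasG12D/G12D HSCs overlapped with each other genotype. Detection of all probes was itself lowest in an NrasG12D/G12D sample, and its part in the difference was not tested. NrasG12D/+ replicate 3, which shared its slide with the NrasG12D/G12D arrays, had 28.3% of all probes but 38.6% of the mitotic probes above background. The separation of the mitotic probes depended on the flag. With the weaker flag for positive and significant signal, 60.2, 60.2 and 71.1% of them were detected in NrasG12D/G12D HSCs, 69.9, 75.9 and 68.7% in NrasG12D/+ HSCs and 71.1 and 63.9% in Nras+/+ HSCs, and the genotypes overlapped. Of all probes, 56.0, 52.6 and 55.6% carried that flag in NrasG12D/G12D HSCs, 66.5, 68.7 and 58.4% in NrasG12D/+ HSCs and 63.8 and 59.0% in Nras+/+ HSCs, where NrasG12D/G12D HSCs lay below the other genotypes without overlap.

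**Figure D1:**
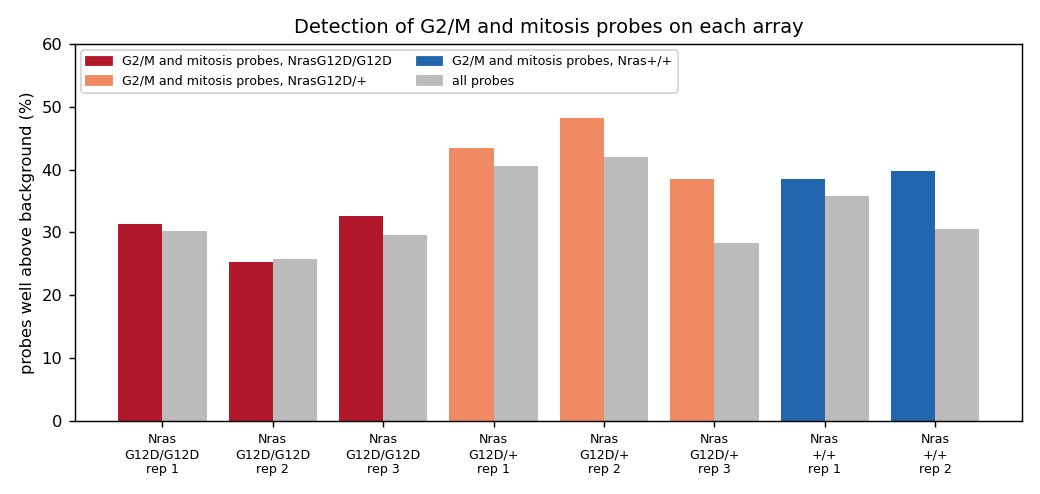
Percent of probes well above background on each array, for the 83 probes of the 48 G2/M and mitosis genes (coloured by Nras genotype) and for all probes (grey). The mitotic probes stood at 25.3% to 32.5% in NrasG12D/G12D HSCs, at 38.6% to 48.2% in NrasG12D/+ HSCs and at 38.6% and 39.8% in Nras+/+ HSCs.

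Counted by gene, 22, 17 and 22 of the 48 members had at least 1 probe above background in NrasG12D/G12D HSCs, 31, 33 and 29 in NrasG12D/+ HSCs, and 28 and 27 in Nras+/+ HSCs. The best probe of 15 members was above background on all 8 arrays: Aurka, Birc5, Bub3, Cdc20, Cdc25b, Cenpe, Cenpf, Kif20a, Kif22, Kif4, Nusap1, Plk1, Prc1, Racgap1 and Smc2. At the other end, 9 members were above background on no array. They were Ccnb1 (cyclin B1, the main partner of CDK1), Aurkb (the kinase of the chromosomal passenger complex), Bub1 and Bub1b (checkpoint kinases), Cenpa (the histone H3 variant of centromeres), Ect2 (which activates RhoA at the cleavage furrow), Ncaph (a condensin subunit), Pttg1 (securin, the inhibitor of separase) and Tpx2 (an activator of Aurora A). A further 6 were above background on 1 array: Anln, Mad2l1, Melk, Plk4, Tacc3 and Top2a. The array therefore gave no comparison for most of the spindle checkpoint, with Bub3 and Ttk as the tested members out of 5. Over all 83 probes, 36.1% were above background nowhere and 21.7% on all 8 arrays, against 43.3% and 16.0% of all probes.

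A group of 6 members differed between the mutant genotypes in detection, though not all of them in level. Probes of Ccnf, Ckap2, Incenp, Kif11, Nek2 and Smc4 were above background on every NrasG12D/+ array and on no NrasG12D/G12D array, which is 7.23% of the 83 probes, against 0.957% of all probes with that pattern. No mitotic probe had the reverse pattern, which 0.034% of all probes showed. The levels of Ccnf, Ckap2, Incenp and Kif11 overlapped between the mutant genotypes, and those of Nek2 and Smc4 did not. The lowest level above background was -5.13, -5.06 and -3.88 on the NrasG12D/+ arrays and -4.72, -3.70 and -4.34 on the NrasG12D/G12D arrays. The part of these limits in the pattern was not tested. Ccnf, Ckap2 and Ttk were above background on both Nras+/+ arrays and on no NrasG12D/G12D array, or 3.61% of the mitotic probes against 1.85% of all probes, and no mitotic probe had the reverse pattern (0.279% of all probes). Between NrasG12D/+ HSCs and Nras+/+ HSCs the Nek2 probe alone was above background on every array of the mutant and on none of the control, against 0.908% of all probes, and no mitotic probe had the opposite pattern (0.415% of all probes). Nek2 levels overlapped between these genotypes. The lowest level above background was -4.37 and -3.85 on the Nras+/+ arrays, and the part of these limits was again not tested. The mitotic probes had a median GC content of 41.7%, beside 40% for all probes. The probes of Ttk and Ckap2 are printed because their detection divides NrasG12D/G12D HSCs from Nras+/+ HSCs. Each has 60 bases, and the files give coordinates without naming a build, at chr9:83661837-83664780, plus strand, for Ttk and at chr8:23634457-23634516, minus strand, for Ckap2. The Ttk interval is longer than the probe itself.
Ttk: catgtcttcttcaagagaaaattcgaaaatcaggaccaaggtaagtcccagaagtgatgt
Ckap2: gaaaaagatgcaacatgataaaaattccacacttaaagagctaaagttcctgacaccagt

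Ccnf encodes cyclin F, which targets proteins for degradation by an SCF ubiquitin ligase in G2. Its levels were -4.31, -3.49 and -4.69 in NrasG12D/G12D HSCs, -4.62, -4.66 and -3.16 in NrasG12D/+ HSCs and -1.99 and -3.12 in Nras+/+ HSCs. Both control samples lay above all 6 mutant samples, and no NrasG12D/G12D sample was above background. Where a probe was above background on no array of a group, the difference is given as a bound. The brighter group's mean is set against the mean, per array, of the higher of the probe's own level and the lowest level above background. By this bound Ccnf was at least 2.81-fold lower in NrasG12D/G12D HSCs than in Nras+/+ HSCs (adjusted p = 0.727). Without Nras+/+ replicate 1 the bound was 1.89-fold, and without Nras+/+ replicate 2 it was 4.17-fold. In NrasG12D/+ HSCs the Ccnf difference against Nras+/+ HSCs, relative to the median of all genes, was -1.33 (SE 0.82, adjusted p = 0.811). In NrasG12D/G12D HSCs against NrasG12D/+ HSCs it was 0.18 (SE 0.73, adjusted p = 0.998 in limma), with overlapping levels.

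Ckap2, a spindle protein that stabilises microtubules, stood at -4.93, -4.0 and -4.38 in NrasG12D/G12D HSCs, -4.72, -3.95 and -3.27 in NrasG12D/+ HSCs and -3.78 and -2.64 in Nras+/+ HSCs. It was at least 2.06-fold lower in NrasG12D/G12D HSCs than in Nras+/+ HSCs (adjusted p = 0.733) and at least 1.21-fold lower than in NrasG12D/+ HSCs (adjusted p = 0.926), but the second bound fell under 1 without NrasG12D/+ replicate 3. The first was 1.39-fold without Nras+/+ replicate 2. The NrasG12D/+ samples ran from the NrasG12D/G12D range into the Nras+/+ range. Ttk, the kinase Mps1 that starts the spindle checkpoint, stood at -6.29, -4.25 and -5.62 in NrasG12D/G12D HSCs, -5.94, -5.73 and -3.55 in NrasG12D/+ HSCs and -3.67 and -3.30 in Nras+/+ HSCs. It was at least 1.70-fold lower in NrasG12D/G12D HSCs than in Nras+/+ HSCs (adjusted p = 0.727). NrasG12D/+ replicates 1 and 2 lay in the range of the NrasG12D/G12D samples, and replicate 3, on slide 2, was above background.

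Nek2, a centrosome kinase that splits the centrosome pair, stood at -5.33, -5.55 and -5.39 in NrasG12D/G12D HSCs, -4.29, -4.38 and -3.30 in NrasG12D/+ HSCs and -4.81 and -3.76 in Nras+/+ HSCs. All 3 NrasG12D/G12D samples lay below the other 5. None of these 3 was above background, so the spread among them, 0.12 (SD), is not a measure of even expression. Nek2 was at least 1.20-fold lower in NrasG12D/G12D HSCs than in NrasG12D/+ HSCs (adjusted p = 0.803), a bound that fell under 1 without NrasG12D/+ replicate 3. Since neither NrasG12D/G12D HSCs nor Nras+/+ HSCs had the probe above background, no fold is given between them. Smc4, a core subunit of condensin, stood at -4.52, -5.06 and -5.21 in NrasG12D/G12D HSCs, -4.14, -3.95 and -3.31 in NrasG12D/+ HSCs and -3.34 and -4.30 in Nras+/+ HSCs. It too was lowest in the 3 NrasG12D/G12D samples, at least 1.31-fold below NrasG12D/+ HSCs (adjusted p = 0.814) and at least 1.29-fold below Nras+/+ HSCs (adjusted p = 0.734). Nras+/+ replicate 1 was the one control with Smc4 above background, so the last bound rests on it. The median of all genes also lay lower in NrasG12D/G12D HSCs than in Nras+/+ HSCs, at a log2 difference of -0.44. That drop of all genes is larger than the 1.29-fold bound for Smc4.

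Kif11, the kinesin Eg5 that pushes spindle poles apart, stood at -5.23, -3.85 and -5.66 in NrasG12D/G12D HSCs, -3.67, -4.70 and -1.87 in NrasG12D/+ HSCs and -4.48 and -3.33 in Nras+/+ HSCs. It was at least 1.79-fold lower in NrasG12D/G12D HSCs than in NrasG12D/+ HSCs (adjusted p = 0.829), but one NrasG12D/G12D sample lay above one NrasG12D/+ sample. This bound was 1.05-fold without NrasG12D/+ replicate 3 and 2.80-fold without NrasG12D/+ replicate 2. Incenp, the scaffold of the chromosomal passenger complex, stood at -6.77, -3.81 and -4.76 in NrasG12D/G12D HSCs, 1.89, -4.77 and -2.62 in NrasG12D/+ HSCs and -5.19 and -0.19 in Nras+/+ HSCs. It was at least 5.35-fold lower in NrasG12D/G12D HSCs than in NrasG12D/+ HSCs (adjusted p = 0.809), with NrasG12D/+ replicate 1 far above the other samples of its group. Without that sample the bound was 1.47-fold, and without NrasG12D/+ replicate 2 it was 14.8-fold. The groups overlapped.

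**Figure D2:**
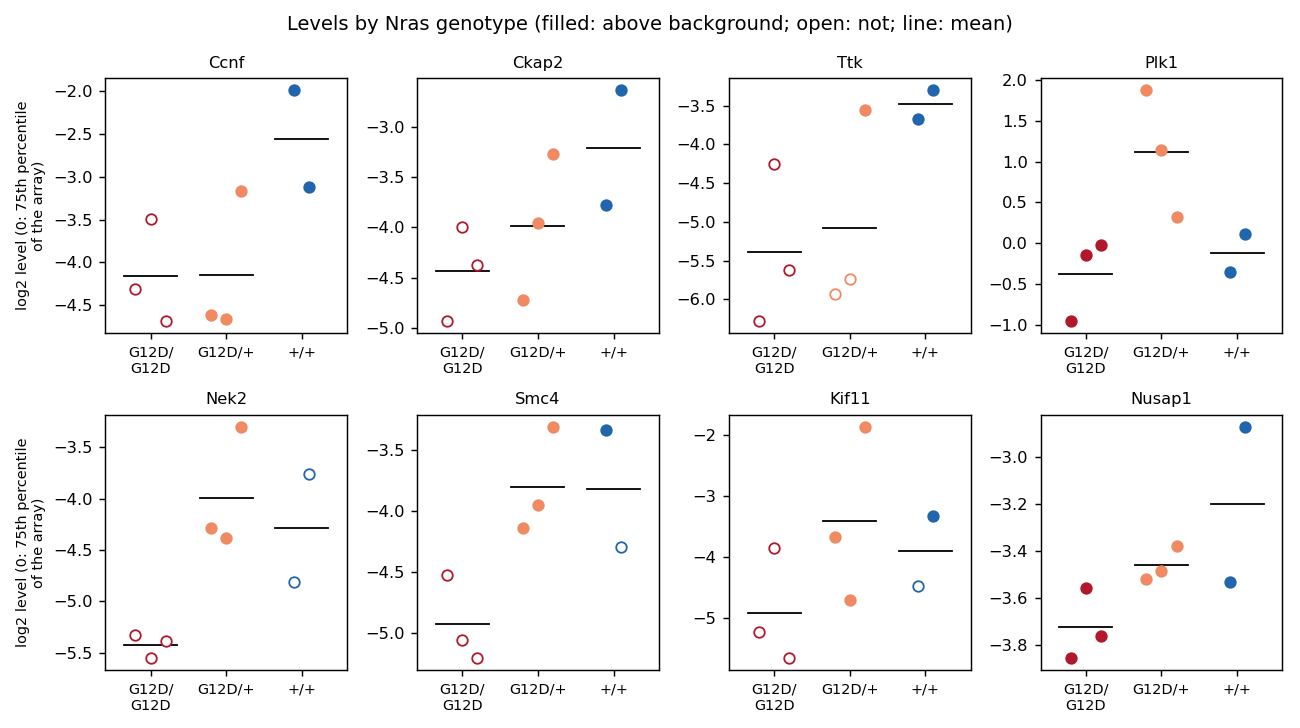
Log2 level relative to the 75th percentile of the array for 8 members, by Nras genotype, with 1 point per sample and the mean as a line. Filled points were well above background and open points were not, and Ccnf, Ckap2, Ttk, Nek2, Smc4 and Kif11 have open points for all 3 NrasG12D/G12D samples.

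The first comparison was of NrasG12D/G12D HSCs with Nras+/+ HSCs, the cells with 2 mutant alleles against those with none. No gene on the array passed the test in limma at an adjusted p under 0.05, so percent called was 0% of the 15041 genes, and 973 genes had an unadjusted p under 0.05 (6.47%). None of the 32 members tested passed, and 1 (3.12%), Hmmr, had an unadjusted p under 0.05. A gene's log2 difference lay at a median of -0.44 over all genes in this comparison, -0.26 between NrasG12D/+ HSCs and Nras+/+ HSCs, and -0.20 between NrasG12D/G12D HSCs and NrasG12D/+ HSCs. Differences in the text are given relative to that median, while adjusted p refers to the difference before the shift. The bounds given as folds come from the levels themselves, so they include the shift of all genes. The 32 members tested had a median of -0.50 relative to all genes, with 9 above and 23 below, against 50% of all genes above. Without the filter on dim probes, the median over 47 members was -0.45, and over the 14 members above background on all 8 arrays it was -0.0066, with 7 of 14 above. With the slide as a block, which rests on the NrasG12D/+ arrays because no slide held both genotypes, the median was -1.09. With normexp background correction it was -0.064.

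The 3 NrasG12D/G12D samples lay below both Nras+/+ samples for 12 of the 32 members (37.5%), against 23% of all genes. These were Bub3, Ccnf, Cdc25b, Ckap2, Foxm1, Hmmr, Kif23, Nek2, Nusap1, Smc4, Ttk and Ube2c. In 9 of the 12 the probe was not above background on all 8 arrays. Passing the filter through one group favours a higher level in that group without fixing it, so the share of 37.5% is no measure of an excess. Restricted to the 14 members above background throughout, 3 lay lower without overlap (Bub3, Cdc25b and Nusap1), against 21.9% of such genes. Cenpe, above background throughout, was the 1 member that lay higher without overlap, against 6.04% of all genes and 7.05% of genes above background on all 8 arrays.

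Hmmr, the hyaluronan receptor that also binds spindle microtubules, stood at -6.81, -5.92 and -6.55 in NrasG12D/G12D HSCs, -4.97, -5.22 and -4.42 in NrasG12D/+ HSCs and 0.46 and -4.47 in Nras+/+ HSCs. Nras+/+ replicate 1 lay 4.87 above every other array, and Nras+/+ replicate 2 lay within the range of the NrasG12D/+ samples. Hmmr was at least 4.74-fold lower in NrasG12D/G12D HSCs than in Nras+/+ HSCs (unadjusted p = 0.00700, adjusted p = 0.727). Without Nras+/+ replicate 1 no fold could be given, since Hmmr was then above background in neither genotype, and without Nras+/+ replicate 2 the bound was 26.2-fold. Ube2c, the ubiquitin-conjugating enzyme of the APC/C, stood at -6.91, -5.22 and -5.25 in NrasG12D/G12D HSCs, -4.50, -4.65 and -4.22 in NrasG12D/+ HSCs and -4.75 and -3.75 in Nras+/+ HSCs. Its NrasG12D/G12D samples were the lowest 3, but it was above background in 2 NrasG12D/+ samples only.

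Cdc25b, the phosphatase that starts CDK1 activation at centrosomes, was bright enough to compare on every array. Its levels were -0.19, 0 and 0.24 in NrasG12D/G12D HSCs, -0.42, -0.049 and 0.36 in NrasG12D/+ HSCs and 0.56 and 1.98 in Nras+/+ HSCs. All 6 mutant samples lay below both controls. Relative to all genes it differed by -0.81 (SE 0.73, adjusted p = 0.730) in NrasG12D/G12D HSCs and by -1.05 (SE 0.73, adjusted p = 0.811) in NrasG12D/+ HSCs, each against Nras+/+ HSCs, and neither passed the test. With 1 array left out these ran over -1.49 to -0.24 and -1.79 to -0.44, the smallest without Nras+/+ replicate 2. Bub3, the checkpoint protein that brings Bub1 to kinetochores, also had all 6 mutant samples below both controls, at -3.20, -2.83 and -3.12 in NrasG12D/G12D HSCs, -4.43, -2.90 and -2.76 in NrasG12D/+ HSCs and -2.61 and -1.62 in Nras+/+ HSCs. Its differences were -0.49 (SE 0.79, adjusted p = 0.767) in NrasG12D/G12D HSCs and -0.99 (SE 0.79, adjusted p = 0.811) in NrasG12D/+ HSCs. These Bub3 values are of its tested probe. Another probe, above background in 1 NrasG12D/G12D sample only, stood at -5.25, -3.28 and -5.64 in NrasG12D/G12D HSCs. It stood at -6.29, -5.10 and -4.10 in NrasG12D/+ HSCs and -6.20 and -6.02 in Nras+/+ HSCs. By that probe the NrasG12D/G12D samples lay above both controls. The remaining Bub3 probes were above background on no array.

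Foxm1, the transcription factor that drives many genes of this set, stood at -4.55, -3.92 and -3.37 in NrasG12D/G12D HSCs, -3.42, -3.43 and -2.24 in NrasG12D/+ HSCs and -2.52 and -3.25 in Nras+/+ HSCs. It differed from Nras+/+ HSCs by -0.62 (SE 0.76, adjusted p = 0.749) in NrasG12D/G12D HSCs and by 0.11 (SE 0.76, adjusted p = 0.965) in NrasG12D/+ HSCs. Kif23, the kinesin of the central spindle, stood at -4.61, -2.95 and -3.54 in NrasG12D/G12D HSCs, -4.36, -3.65 and -2.48 in NrasG12D/+ HSCs and -2.58 and -2.65 in Nras+/+ HSCs, a difference of -0.64 (SE 0.84, adjusted p = 0.757) in NrasG12D/G12D HSCs against Nras+/+ HSCs. Nusap1, which bundles spindle microtubules, had the tightest levels of the set above background on all arrays, at -3.86, -3.56 and -3.76 in NrasG12D/G12D HSCs, -3.52, -3.48 and -3.38 in NrasG12D/+ HSCs and -3.53 and -2.87 in Nras+/+ HSCs. It differed by -0.082 (SE 0.65, adjusted p = 0.829) in NrasG12D/G12D HSCs against Nras+/+ HSCs, so that most of the gap between its groups lay in the shift of all genes.

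The highest differences of the tested members in this comparison were those of Cenpe and Cenpf. Cenpe, the kinetochore motor that moves chromosomes to the spindle equator, stood at -2.66, -0.040 and -2.48 in NrasG12D/G12D HSCs, -2.30, -2.08 and -3.39 in NrasG12D/+ HSCs and -3.12 and -3.66 in Nras+/+ HSCs. Every NrasG12D/G12D sample lay above both controls, one of them far above, and the difference was 2.11 (SE 0.95, adjusted p = 0.729). Cenpf, which tethers motors at the kinetochore, stood at 2.78, 0.73 and 3.10 in NrasG12D/G12D HSCs, 1.82, 0.58 and 0.75 in NrasG12D/+ HSCs and 0.59 and 0.97 in Nras+/+ HSCs. It differed by 1.86 (SE 0.90, adjusted p = 0.733), with NrasG12D/G12D replicate 2 inside the range of the controls. With the slide as a block Cenpe differed by 3.62. Cenpe had 3 probes and Cenpf 2, and for each gene all but the tested probe were above background on no array. Among 24 further kinetochore genes, 16 were tested in the same fit, with a median of 0.086 and 9 of 16 above the median of all genes.

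**Figure D3:**
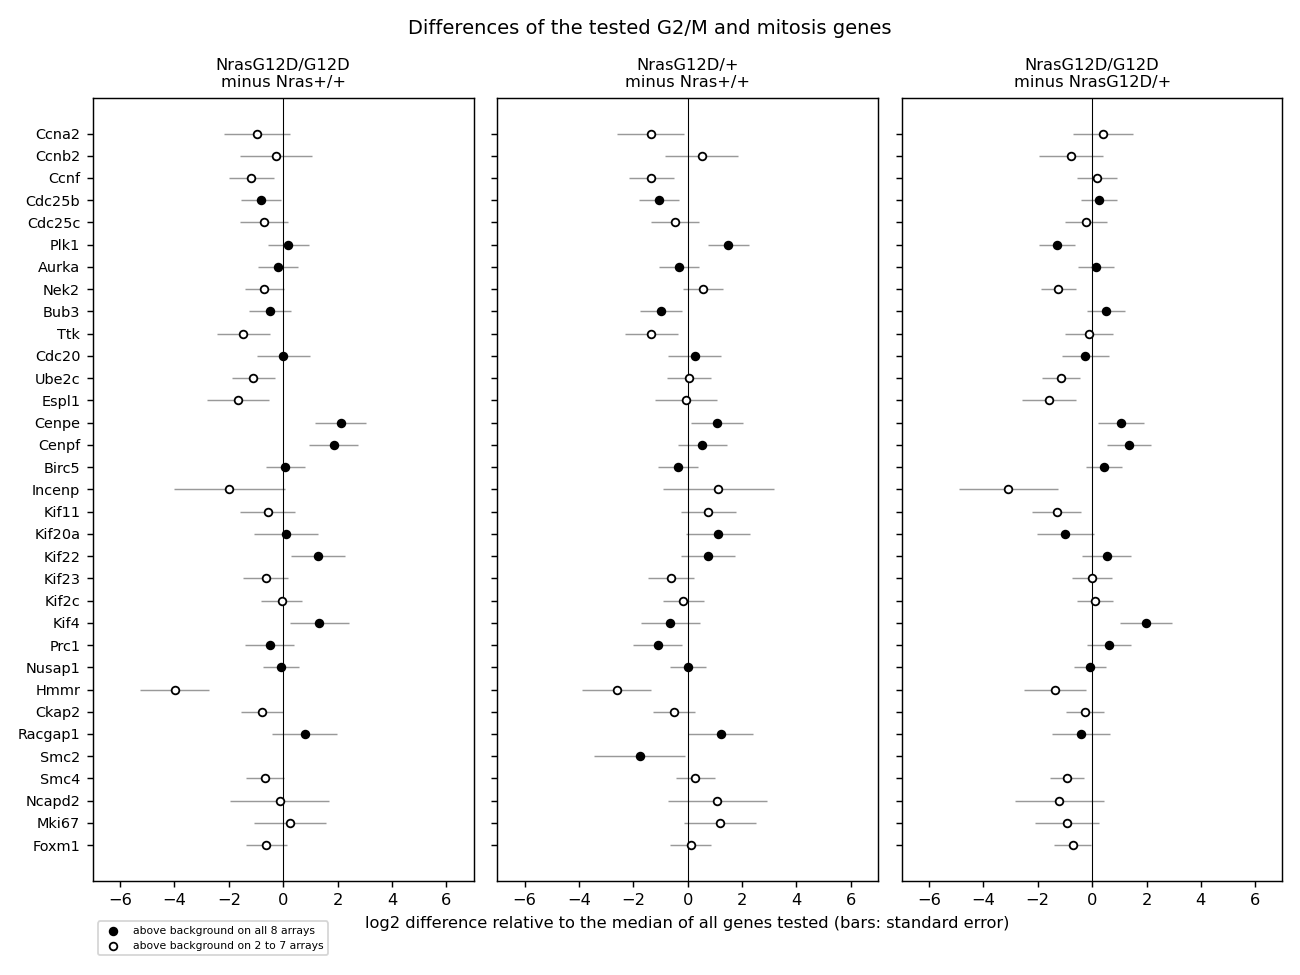
Log2 difference relative to the median of all genes tested, with its standard error, for each tested member in the 3 comparisons, in the order of their roles. Open points had arrays without a signal above background, so their position is not a measured fold. No member passed the test, and Cenpe (2.11) and Cenpf (1.86) stand furthest right in NrasG12D/G12D against Nras+/+ HSCs.

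The comparison of NrasG12D/+ HSCs with Nras+/+ HSCs asked what 1 mutant allele does. Again no gene passed the test in limma (0% of 15094 genes), 712 genes (4.72%) had an unadjusted p under 0.05, and no member did. The 33 members tested had a median difference of 0.0015 relative to all genes, with 17 above and 16 below. Within slide 1, which held both genotypes, the median was -0.18. The groups did not overlap for 2 members that lay higher (Mki67 and Plk1, 6.06%, against 8.94% of all genes) and 4 that lay lower (Bub3, Ccnf, Cdc25b and Smc2, 12.1%, against 16.4%). Among the 15 tested members above background throughout, 1 lay higher (Plk1, against 7.19% of such genes) and 3 lower (Bub3, Cdc25b and Smc2, against 19.3%). Smc2 had usable values in 2 NrasG12D/+ samples and 1 Nras+/+ sample only, so its place in these counts sets 2 samples against 1.

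Plk1, the polo kinase of mitotic entry and spindle assembly, was above background on all arrays. It stood at -0.96, -0.14 and -0.024 in NrasG12D/G12D HSCs, 1.88, 1.14 and 0.32 in NrasG12D/+ HSCs and -0.35 and 0.11 in Nras+/+ HSCs. The 3 NrasG12D/+ samples lay above all others, with a difference of 1.49 (SE 0.76, adjusted p = 0.811) against Nras+/+ HSCs and 2.0 within slide 1. Levels in NrasG12D/G12D HSCs and Nras+/+ HSCs overlapped, at a difference of 0.18 (SE 0.76, adjusted p = 0.935).

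Mki67, the antigen Ki-67 that coats mitotic chromosomes, was dim. Its tested probe stood at -1.77, -5.88 and -6.43 in NrasG12D/G12D HSCs, -2.69, -4.05 and -3.99 in NrasG12D/+ HSCs and -4.30 and -4.71 in Nras+/+ HSCs. It was above background in NrasG12D/G12D replicate 1 and in NrasG12D/+ replicates 1 and 2, and at least 1.41-fold higher in NrasG12D/+ HSCs than in Nras+/+ HSCs (adjusted p = 0.864). That bound was 1.04-fold without NrasG12D/+ replicate 1. A second probe stood at -6.86, -5.62 and -3.72 in NrasG12D/G12D HSCs, -4.54, -7.28 and -0.26 in NrasG12D/+ HSCs and -6.62 and -6.02 in Nras+/+ HSCs. It was above background in NrasG12D/G12D replicate 3 and NrasG12D/+ replicates 1 and 3, so that NrasG12D/+ replicate 1 was the one sample in which both probes were. The probes are printed to show that they read different stretches of the gene. The files place them at chr7:135528251-135528310, minus strand (tested), and at chr7:135532672-135532731, minus strand (second).
Mki67, tested probe: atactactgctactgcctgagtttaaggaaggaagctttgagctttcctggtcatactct
Mki67, second probe: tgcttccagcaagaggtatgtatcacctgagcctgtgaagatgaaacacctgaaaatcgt

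The third comparison set the mutant genotypes against each other. No gene passed the test in limma (0% of 15047 genes), 892 (5.93%) had an unadjusted p under 0.05, and no member did. The 32 members tested had a median of -0.24 relative to all genes, with 12 above and 20 below. Over the 14 members above background on all 8 arrays the median was 0.11. Without NrasG12D/+ replicate 3, the NrasG12D/+ array on slide 2, it was 0.060, while within slide 2, where that array stands alone for its genotype, it was -0.53. The groups did not overlap for 6 members that lay lower in NrasG12D/G12D HSCs (Hmmr, Nek2, Nusap1, Plk1, Smc4 and Ube2c, 18.8%, against 8.72% of all genes). They did not overlap for 1 member that lay higher, Kif4, against 2.9% of all genes. Of the members that lay lower, Hmmr, Nek2, Smc4 and Ube2c were above background on no NrasG12D/G12D array. Nek2 and Ube2c passed the filter through NrasG12D/+ HSCs alone, which favours a higher level in that group, so these shares are no measure of an excess. Among the 14 members above background throughout, 2 lay lower without overlap (Nusap1 and Plk1), against 5.01% of such genes, and 1 lay higher (Kif4), against 4.41%.

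For Plk1 the difference in NrasG12D/G12D HSCs against NrasG12D/+ HSCs was -1.29 (SE 0.68, adjusted p = 0.803), and -0.33 within slide 2. Kif4, a chromosome-bound kinesin of the spindle midzone, stood at 0.081, -0.50 and 0.94 in NrasG12D/G12D HSCs, -2.90, -0.90 and -1.03 in NrasG12D/+ HSCs and 0.78 and -2.21 in Nras+/+ HSCs. The NrasG12D/G12D samples lay above all NrasG12D/+ samples, at a difference of 1.98 (SE 0.96, adjusted p = 0.803), and the controls spanned both. Nusap1 differed by -0.068 (SE 0.59, adjusted p = 0.952).

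**Figure D4:**
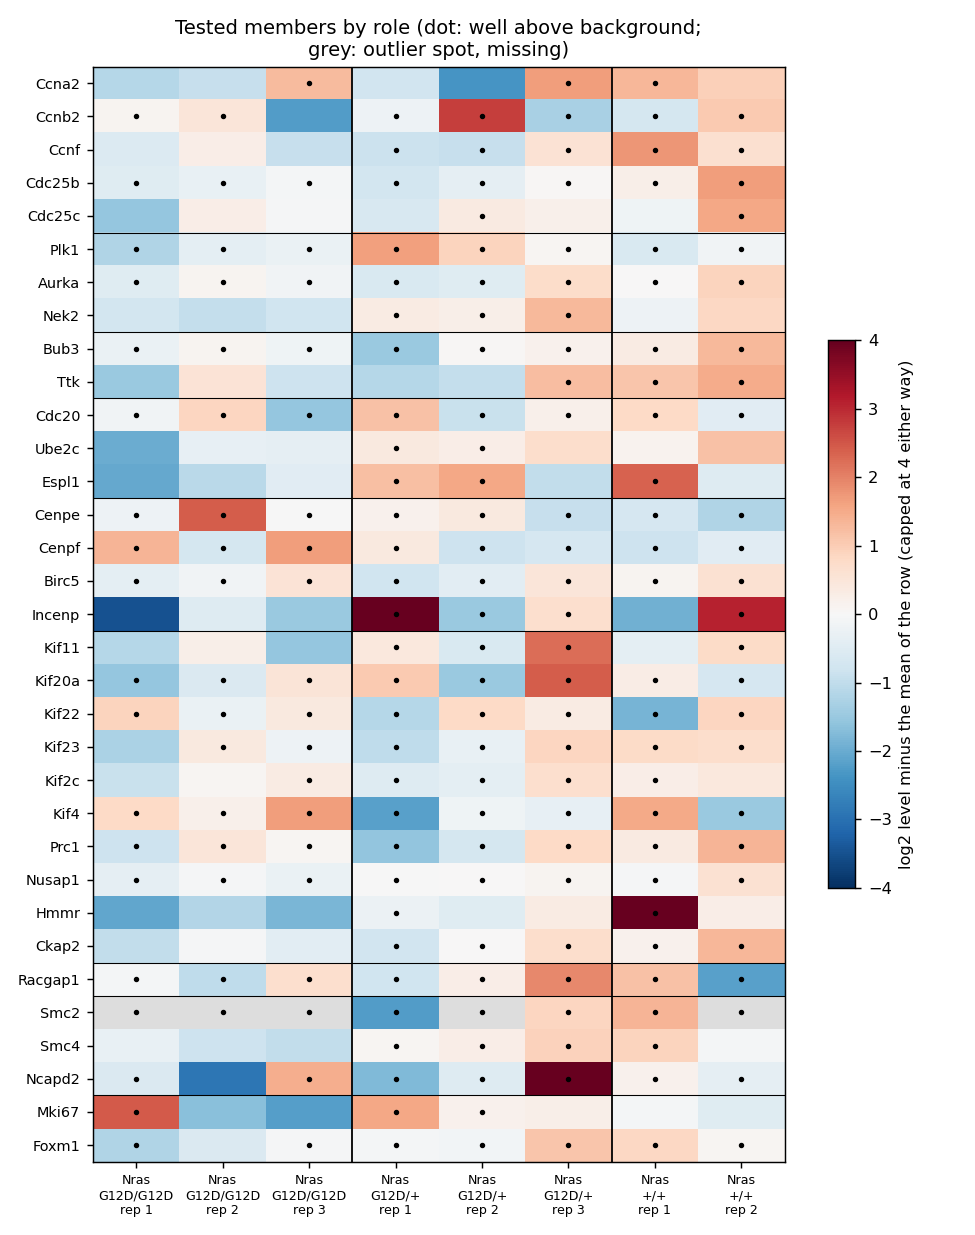
Log2 level of each tested member on each array, minus the mean of the row, with lines between roles (cyclins and Cdc25, kinases, checkpoint, anaphase, centromere, spindle, cytokinesis, chromosome structure, Ki-67 and Foxm1). Dots mark probes well above background and grey marks outlier spots; Smc2 has no usable NrasG12D/G12D value.

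The remaining cyclins gave no common order. Ccna2 (cyclin A2) stood at -5.87, -5.66 and -3.47 in NrasG12D/G12D HSCs, -5.51, -7.08 and -3.06 in NrasG12D/+ HSCs and -3.40 and -3.79 in Nras+/+ HSCs, and was above background on 1 array of each genotype. Ccnb2 (cyclin B2) stood at -2.09, -1.72 and -4.43 in NrasG12D/G12D HSCs, -2.40, 0.56 and -3.49 in NrasG12D/+ HSCs and -2.91 and -1.15 in Nras+/+ HSCs. The NrasG12D/+ samples enclosed all other samples for Ccnb2 but one. By their tested probes, the 5 tested members of the cyclin and Cdc25 group lay below the median of all genes in NrasG12D/G12D HSCs against Nras+/+ HSCs, and 4 of 5 in NrasG12D/+ HSCs against Nras+/+ HSCs, but Cdc25c went the other way by its second probe. Cdc25c, which completes CDK1 activation, had its tested probe above background in 1 NrasG12D/+ and 1 Nras+/+ sample, at -6.61, -4.79 and -5.11 in NrasG12D/G12D HSCs, -5.68, -4.69 and -4.85 in NrasG12D/+ HSCs and -5.22 and -3.50 in Nras+/+ HSCs. The second probe was above background in 2 NrasG12D/+ samples and no other, at -5.59, -5.49 and -4.69 in NrasG12D/G12D HSCs, -4.75, -4.46 and -4.77 in NrasG12D/+ HSCs and -6.70 and -6.06 in Nras+/+ HSCs. By this probe all 6 mutant samples lay above both controls.

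Aurka, the Aurora kinase of the spindle poles, stood at -3.11, -2.51 and -2.77 in NrasG12D/G12D HSCs, -3.23, -3.10 and -1.90 in NrasG12D/+ HSCs and -2.61 and -1.72 in Nras+/+ HSCs. Its groups overlapped, and the difference in NrasG12D/G12D HSCs against Nras+/+ HSCs was -0.19 (SE 0.75, adjusted p = 0.820). Among the genes of anaphase, Cdc20 stood at -1.57, -0.56 and -2.97 in NrasG12D/G12D HSCs, -0.25, -2.30 and -1.21 in NrasG12D/+ HSCs and -0.63 and -1.87 in Nras+/+ HSCs, with a difference of -0.0039 (SE 0.97). Espl1 (separase, which cleaves cohesin) stood at -6.64, -5.66 and -5.04 in NrasG12D/G12D HSCs, -3.37, -3.03 and -5.58 in NrasG12D/+ HSCs and -2.24 and -5.11 in Nras+/+ HSCs. It was above background on no NrasG12D/G12D array, at least 1.5-fold below Nras+/+ HSCs (adjusted p = 0.727) and at least 1.20-fold below NrasG12D/+ HSCs (adjusted p = 0.814), with overlapping groups. Nras+/+ replicate 1 was the one control above background, and without Nras+/+ replicate 2 the first bound was 4.04-fold. The second fell under 1 without NrasG12D/+ replicate 1 or 2 and was 2.07-fold without NrasG12D/+ replicate 3.

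Birc5 (survivin, of the passenger complex) was among the most even members, at -0.0052, 0.23 and 0.92 in NrasG12D/G12D HSCs, -0.41, -0.043 and 0.87 in NrasG12D/+ HSCs and 0.50 and 0.98 in Nras+/+ HSCs. Its differences were 0.083 (SE 0.73, adjusted p = 0.900) in NrasG12D/G12D HSCs and -0.34 (SE 0.73, adjusted p = 0.848) in NrasG12D/+ HSCs against Nras+/+ HSCs. Racgap1, which with Kif23 forms centralspindlin, stood at -0.53, -1.48 and 0.21 in NrasG12D/G12D HSCs, -1.25, -0.19 and 1.46 in NrasG12D/+ HSCs and 0.73 and -2.63 in Nras+/+ HSCs. The 2 controls enclosed all mutant samples but NrasG12D/+ replicate 3. Prc1, which bundles midzone microtubules, stood at -1.07, 0.23 and -0.17 in NrasG12D/G12D HSCs, -1.83, -0.97 and 0.54 in NrasG12D/+ HSCs and 0.11 and 1.1 in Nras+/+ HSCs, a difference of -0.50 (SE 0.90, adjusted p = 0.785) in NrasG12D/G12D HSCs and -1.1 (SE 0.90, adjusted p = 0.811) in NrasG12D/+ HSCs.

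Of the other kinesins, Kif22 (which pushes chromosome arms) stood at 1.61, 0.46 and 1.11 in NrasG12D/G12D HSCs, -0.40, 1.51 and 1.07 in NrasG12D/+ HSCs and -1.13 and 1.58 in Nras+/+ HSCs, with overlapping groups and a difference of 1.27 (SE 1.0, adjusted p = 0.824) in NrasG12D/G12D HSCs against Nras+/+ HSCs. Kif2c, a microtubule depolymerase, lay between -5.10 and -3.54 on all arrays and was above background on every NrasG12D/+ array and on 1 array of each other genotype. Ncapd2, a condensin subunit, stood at -2.27, -4.58 and -0.23 in NrasG12D/G12D HSCs, -3.45, -2.20 and 2.78 in NrasG12D/+ HSCs and -1.53 and -2.04 in Nras+/+ HSCs. Its SE of 1.83 exceeded every difference, and NrasG12D/+ replicate 3 alone lay 3.01 above the next array. Smc2, the partner of Smc4, had its tested probe marked as an outlier spot on all 3 NrasG12D/G12D arrays, on NrasG12D/+ replicate 2 and on Nras+/+ replicate 2. The usable levels were -4.51 and -1.42 in NrasG12D/+ HSCs and -0.94 in Nras+/+ HSCs. The fit left out the missing arrays and gave a difference of -1.77 (SE 1.67, adjusted p = 0.815) in NrasG12D/+ HSCs against Nras+/+ HSCs.

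Several members rested on 1 bright array. Top2a, the topoisomerase that untangles sister chromatids, had a probe at 3.21 in NrasG12D/+ replicate 2, with the other 7 arrays at -5.78 or below and not above background. The gap of 8.99 was the widest of the 83 probes, and a gap over 8 occurred in 0.828% of all probes with a value on every array, against 1.20% of the mitotic probes. Its other 2 probes did not follow, at -7.34 and -6.60 in the same sample. The bright Top2a probe is printed because the value would otherwise read as a strong mitotic signal in that sample. The files place it at chr11:98831137-98832164, minus strand.
Top2a: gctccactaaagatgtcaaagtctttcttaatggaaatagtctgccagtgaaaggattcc

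Gaps over 2 were found for 7 of the 83 mitotic probes (8.43%), against 11.2% of all probes. Apart from the Top2a, Hmmr, Mki67 and Ncapd2 probes already given, they were a second Top2a probe (Nras+/+ replicate 2), Incenp (NrasG12D/+ replicate 1) and Cenpe (NrasG12D/G12D replicate 2). The bright array was a different one for each of these probes, except that NrasG12D/+ replicate 3 was the brightest for both Mki67 and Ncapd2.

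Pairs of probes for one gene gave a check on the levels. For Cdc25b, Nras+/+ HSCs had the highest mean by both bright probes, the second of which stood at -0.50, 0.086 and -0.54 in NrasG12D/G12D HSCs, -0.92, -0.91 and 0.47 in NrasG12D/+ HSCs and 0.15 and 0.93 in Nras+/+ HSCs. Before the shift of all genes, Cdc25b differed by -1.25 by the tested probe and -0.86 by the second in NrasG12D/G12D HSCs against Nras+/+ HSCs. By the second probe NrasG12D/+ replicate 3 lay above Nras+/+ replicate 1, so that not all mutant samples were below both controls. Kif20a, a kinesin of the midzone, had 2 overlapping probes. The tested one stood at -3.09, -2.11 and -1.03 in NrasG12D/G12D HSCs, -0.51, -3.04 and 0.88 in NrasG12D/+ HSCs and -1.25 and -2.23 in Nras+/+ HSCs. The other stood at -3.96, -3.37 and -2.95 in NrasG12D/G12D HSCs, -2.79, -1.79 and -2.72 in NrasG12D/+ HSCs and -2.54 and -2.29 in Nras+/+ HSCs. By the second probe all 3 NrasG12D/G12D samples lay below the other 5.

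Kif4 also had 2 probes, which share a run of 20 bases (the files' intervals, each 1 position longer than the probe, overlap at chrX:96929505-96929525) and yet ordered the arrays differently. The second stood at -1.64, 0.12 and -1.25 in NrasG12D/G12D HSCs, -2.91, -2.17 and -0.79 in NrasG12D/+ HSCs and -0.98 and 0 in Nras+/+ HSCs. By that probe NrasG12D/G12D HSCs and NrasG12D/+ HSCs overlapped, at a difference of 1.04 (SE 0.81) before the shift, against 1.79 (SE 0.96) by the tested probe. The separation of the mutant genotypes by Kif4 thus held for 1 probe of 2. The shared run is given to show how closely the probes lie.
Kif4, shared run: aaagaggaggaccttggctg

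Smc4 and Kif11 likewise had a second probe above background on at least 2 arrays. For Smc4 it stood at -4.35, -3.78 and -4.48 in NrasG12D/G12D HSCs, -6.62, -4.03 and -3.70 in NrasG12D/+ HSCs and -4.07 and -3.27 in Nras+/+ HSCs, where NrasG12D/+ replicate 1 was the lowest sample. For Kif11 it stood at -4.89, -3.98 and -5.20 in NrasG12D/G12D HSCs, -5.66, -3.73 and -3.69 in NrasG12D/+ HSCs and -4.70 and -3.55 in Nras+/+ HSCs, with NrasG12D/+ replicate 1 again lowest. Neither second probe separated NrasG12D/G12D HSCs from NrasG12D/+ HSCs. Ncapd2 and Smc2 had a second probe of this kind too. That of Ncapd2 stood at -4.77, -5.94 and -4.36 in NrasG12D/G12D HSCs, -4.23, -3.87 and -3.74 in NrasG12D/+ HSCs and -4.93 and -3.33 in Nras+/+ HSCs, where all 3 NrasG12D/G12D samples lay below the NrasG12D/+ samples, which the tested probe did not show. That of Smc2 had a value on every array and overlapping groups, at -6.77, -5.46 and -2.42 in NrasG12D/G12D HSCs, -7.28, -5.00 and -4.94 in NrasG12D/+ HSCs and -5.29 and -3.56 in Nras+/+ HSCs.

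**Figure D5:**
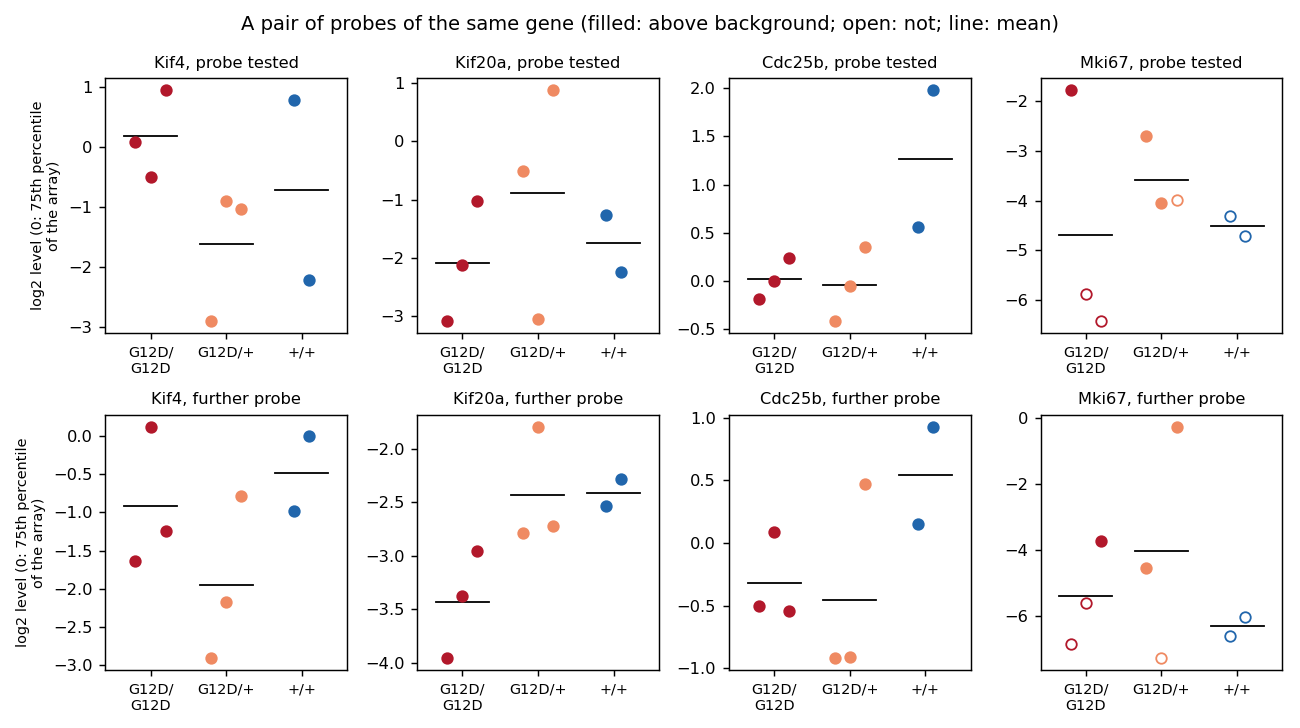
Log2 level relative to the 75th percentile of the array for 2 probes each of Kif4, Kif20a, Cdc25b and Mki67 (upper row: the probe tested; lower row: a further probe), by Nras genotype, with the mean as a line. Filled points were well above background. Both probes of Cdc25b have their highest mean in Nras+/+ HSCs, while those of Mki67 are above background together in NrasG12D/+ replicate 1 only.

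Promoter sequences from RefSeq (GRCm38.p6) were found for 40 of the 48 members. In the 250 bases upstream of the start, on both strands, CCAAT occurred in 30 of the 40 (75%), against 37.5% of 27025 genes. The letters TTTGAA, the core of the CHR element, occurred in 16 (40%, against 18.3% of genes), and TTTAAA, a variant of it, in 7 (17.5%, against 13.7%). Both kinds together, CCAAT with TTTGAA or TTTAAA, occurred in 19 (47.5%, against 11.2%). A match is a description of the letters and not a site. The promoters of the 3 members that were above background in both controls and in no NrasG12D/G12D sample are printed, with CCAAT or its reverse ATTGG and TTTGAA in capitals. That of Ccnf lies at chr17:24251410-24251659, minus strand, that of Ttk at chr9:83834439-83834688, plus strand, and that of Ckap2 at chr8:22185820-22186069, minus strand. Ccnf has 2 CCAAT and 2 TTTGAA, Ttk has 2 CCAAT and none of the CHR letters, and Ckap2 has 1 of each. These 3 members therefore share the CCAAT letters and not the CHR letters.
Ccnf: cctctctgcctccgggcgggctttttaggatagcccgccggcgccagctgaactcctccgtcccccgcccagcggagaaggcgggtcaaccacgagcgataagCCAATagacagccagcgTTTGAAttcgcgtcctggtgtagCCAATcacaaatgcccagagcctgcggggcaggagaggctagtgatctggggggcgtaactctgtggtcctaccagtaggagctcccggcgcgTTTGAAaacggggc
Ttk: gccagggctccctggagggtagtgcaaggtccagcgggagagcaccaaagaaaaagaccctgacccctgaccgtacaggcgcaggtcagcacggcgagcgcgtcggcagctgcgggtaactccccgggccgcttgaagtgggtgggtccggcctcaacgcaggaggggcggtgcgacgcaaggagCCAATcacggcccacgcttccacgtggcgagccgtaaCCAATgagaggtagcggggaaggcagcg
Ckap2: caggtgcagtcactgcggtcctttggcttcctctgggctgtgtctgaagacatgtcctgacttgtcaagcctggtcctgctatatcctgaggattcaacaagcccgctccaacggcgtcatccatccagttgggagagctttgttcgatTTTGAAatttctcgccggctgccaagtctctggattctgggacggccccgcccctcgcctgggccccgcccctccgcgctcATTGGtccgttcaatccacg

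Other genes of G2 and mitosis, in 6 further lists of 93 genes on the array were tested in the same fit. Of the 93, 50 were tested, and in each comparison none passed the test in limma, with 4, 5 and 5 at an unadjusted p under 0.05 in NrasG12D/G12D HSCs against Nras+/+ HSCs, in NrasG12D/+ HSCs against Nras+/+ HSCs and in NrasG12D/G12D HSCs against NrasG12D/+ HSCs. Their median differences relative to all genes were 0.17, 0.60 and -0.41 in that order, against -0.50, 0.0015 and -0.24 for the members. CDK1 itself (listed as Cdc2a) and Mybl2 (B-MYB) were above background on no array, and Wee1, the kinase that holds CDK1 inactive, on 1.

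The list of APC/C subunits and regulators had 10 of 15 genes tested. All 10 lay above the median of all genes in NrasG12D/+ HSCs against Nras+/+ HSCs, at a median of 2.0, and 6 of them lay higher without overlap (8.94% of all genes did). That median was 1.18 over the 15 genes without a filter, 1.13 over the 5 above background on all 8 arrays, 1.09 with normexp and 0.89 with every probe by itself. In NrasG12D/G12D HSCs against Nras+/+ HSCs the median was 1.26, with 9 of 10 above, but 0.18 without a filter and 0.33 with normexp. In NrasG12D/G12D HSCs against NrasG12D/+ HSCs it was -1.07, with 2 of 10 above. None passed the test, and the comparisons share the Nras+/+ or NrasG12D/+ samples. Fzr1 (Cdh1, the APC/C activator of late mitosis and G1) stood at 1.56, -5.10 and 1.75 in NrasG12D/G12D HSCs, 1.99, 2.25 and 4.50 in NrasG12D/+ HSCs and -1.98 and -2.66 in Nras+/+ HSCs. Every NrasG12D/+ sample lay above both controls, while NrasG12D/G12D replicate 2 lay far below all others. The cohesin genes Rad21 and Smc3 were each bright on 1 array, at 4.16 in NrasG12D/+ replicate 1 for Rad21 and at -0.58 in Nras+/+ replicate 1 for Smc3.

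Markers of other blood cells were set beside these values. No gene of the 7 marker lists passed the test in any comparison. Neutrophil markers, of which 6 of 10 were tested, had a median of -0.44 in NrasG12D/G12D HSCs against Nras+/+ HSCs and -0.87 against NrasG12D/+ HSCs, with 1 to 2 of the 10 above background per NrasG12D/G12D sample, 3 to 5 per NrasG12D/+ sample and 3 in each Nras+/+ sample. Their mean level per array ranged from -4.85 to -3.62 in NrasG12D/G12D HSCs, -3.87 to -0.81 in NrasG12D/+ HSCs and -3.74 to -2.83 in Nras+/+ HSCs. Erythroid markers, of which 8 of 10 were tested, had medians of 0.048 and 0.44 in the same comparisons, with 3 to 6, 4 to 7 and 5 to 6 of the 10 above background in the 3 genotypes. Their mean level ranged from -3.58 to -3.04 in NrasG12D/G12D HSCs, -3.34 to -3.10 in NrasG12D/+ HSCs and -3.15 to -2.93 in Nras+/+ HSCs. Monocyte and macrophage markers (4 of 7 tested) had medians of -0.42 and -0.18, and 3 to 4 of 7 were above background per NrasG12D/G12D sample, 4 to 5 per NrasG12D/+ sample and 4 per Nras+/+ sample, with mean levels of -4.02 to -1.93, -3.93 to -2.31 and -3.15 to -2.24 in that order of genotypes. B cell markers (6 of 8 tested) had medians of 1.01 and 0.39, and 5 of 8 were above background per NrasG12D/G12D sample, 6 per NrasG12D/+ sample and 4 to 5 per Nras+/+ sample, with mean levels of -2.41 to -2.0, -2.77 to -2.35 and -2.59 to -2.15 in that order of genotypes. T and NK cell markers (5 of 10 tested) had medians of 0.75 and 1.02, and 2 to 4 of 10 were above background per NrasG12D/G12D sample, 3 to 6 per NrasG12D/+ sample and 3 per Nras+/+ sample, with mean levels of -3.25 to -1.38, -3.69 to -2.54 and -2.53 to -1.75 in that order of genotypes. Megakaryocyte markers (4 of 6 tested) had medians of 0.070 and -0.49, and 4 of 6 were above background per NrasG12D/G12D sample, 3 to 4 per NrasG12D/+ sample and 4 per Nras+/+ sample, with mean levels of -2.82 to -1.5, -1.94 to -0.55 and -1.88 to -1.56 in that order of genotypes. The remaining list, of HSC markers (11 of 18 tested), had medians of 0.043 and 0.36. In NrasG12D/+ HSCs against Nras+/+ HSCs the HSC markers had a median of -0.33. There 4 of the 11 lay lower without overlap (16.4% of all genes did) and 1 higher (8.94%). The medians there were 0.068 for erythroid, 0.052 for neutrophil and 0.32 for monocyte and macrophage markers. They were -0.11 for B cell, -0.74 for T and NK cell and 0.61 for megakaryocyte markers. The part of these cells in the mitotic values was not tested.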

How the data were processed

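Total RNA of bone marrow HSCs of 3 Nras genotypes was measured on 8 Agilent 1-colour arrays. Each deposited scanner file is a spot table written by Agilent Feature Extraction 10.5.1.1, as named in the file headers. Per the file headers, its processed signal is a linear intensity after background subtraction and detrending within each array, with no scaling between arrays. The mean spot signal and local background, used with normexp in an alternative, are deposited intensities without correction. Flags for spots above background and outlier spots are per the file headers. The deposited value table holds a ratio, the processed signal over the array's median (largest relative deviation 1.7e-06 from that ratio, each column's median 1, linear, not centred per gene), and was used as an alternative. The build of the probe coordinates is not given in the sources used here.

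Each array holds 45018 spots, 43379 of them not controls, with 41174 probes under 27745 gene names. Outlier spots (120 to 464 per array) were set to missing. Log2 signals were averaged per probe and scaled to the array's 75th percentile over the 6579 probes above background on all 8 arrays. The brightest probe of each gene above background on at least 2 arrays entered a 2-sided moderated test in limma 3.58.1 (eBayes after lmFit, with the spread shared by the 3 groups) under R 4.3.3, with Benjamini-Hochberg adjustment over all genes and a threshold of 0.05. Moderation used a prior SD of 1.05 with 3.90 degrees of freedom, added to 5 residual ones. Precision is limited by the number of arrays, and standard errors had a median of 0.97 for NrasG12D/G12D against Nras+/+, 0.96 for NrasG12D/+ against Nras+/+ and 0.87 between the mutant genotypes. The fit was tested on simulated data. No correlation of arrays with the same replicate number, in deviations from group means, exceeded 0.079 (the lowest was -0.088), so the numbers were not taken to pair samples.

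The members, lists, roles and genes to name were chosen with earlier results of these data known. Values are given for members above background on all 8 arrays, for up to 6 members per direction whose groups do not overlap, and for a fixed set; further members were named after their values were seen. Alternatives covered scaling, background correction, the value table, filters on dim probes, the probe per gene, the slide, the samples in the fit, the replicate number as a block and leaving out each array. Promoter sequences are RefSeq's (GRCm38.p6), matched by symbol, and probe sequences come from the files.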

Additional observations from a re-analysis of the deposited data

How the results depend on the processing

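No member passed the test in any comparison under any setting run (22 for each comparison with NrasG12D/+ HSCs and 21 for NrasG12D/G12D against Nras+/+ HSCs, arrays left out in turn included). Over all genes the reported counts were 0. In NrasG12D/+ against Nras+/+ HSCs 1 gene passed with the percentile over all probes, with quantile scaling, with the value table, without a filter and with the mean of probes, and leaving out 1 array gave 0 to 10. In NrasG12D/G12D against Nras+/+ HSCs 1 gene passed with quantile scaling, without a filter, with the mean of probes, with the slide as a block and with only the 2 groups compared, and leaving out 1 array gave 0 to 9. The counts of 10 and 9 came without Nras+/+ replicate 2. Between the mutant genotypes 4 genes passed with the slide as a block, and leaving out 1 array gave 0 to 2 (2 without NrasG12D/+ replicate 2).

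The members' median relative to all genes moved with several settings. In NrasG12D/G12D against Nras+/+ HSCs, beside -0.50 as reported, it was -0.26 with every probe by itself, -0.0066 with the filter on all 8 arrays, -0.064 with normexp, -1.09 with the slide as a block and -0.50 to -0.27 with 1 array left out, the weakest without Nras+/+ replicate 2. Between the mutant genotypes, beside -0.24, it was 0.11 with the filter on all 8 arrays, -0.012 with normexp, -0.53 with the slide as a block or within slide 2, and -0.42 to 0.060 with 1 array left out, the highest without NrasG12D/+ replicate 3. In NrasG12D/+ against Nras+/+ HSCs, beside 0.0015, it was -0.32 to 0.023 with 1 array left out, the lowest without Nras+/+ replicate 1. The share of the 83 probes detected was 63.9% in NrasG12D/G12D, 71.5% in NrasG12D/+ and 67.5% in Nras+/+ HSCs with the weaker flag for positive and significant signal, and the genotypes then overlapped.

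Named members turned direction in 19 results, and in 19 of these the reported difference was smaller than its standard error. In NrasG12D/G12D against Nras+/+ HSCs, Birc5 stood at 0.083 as reported, at -0.018 with the filter on all 8 arrays, -0.17 without a filter, -0.37 with quantile scaling, -0.70 with the slide as a block and -0.14 to 0.30 with 1 array left out. Plk1 stood at -0.068 without a filter, -0.15 with quantile scaling and -0.0060 to 0.39 with 1 array left out. Mki67 stood at -0.0060 without a filter and at -1.30 to 1.16 with 1 array left out, and Kif11 at 0.013 with normexp. With the slide as a block Ccnb2 stood at 2.6 and Cdc20 at 0.23. Leaving out 1 array turned or moved by over 1.5 times 39 of the 46 named differences, and gave -1.12 to 0.61 for Ccnb2, -0.76 to 0.68 for Cdc20 and -0.60 to 0.12 for Aurka.

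Between the mutant genotypes, Aurka stood at -0.098 with the filter on all 8 arrays, -0.14 without a filter, -0.014 with normexp and -0.067 to 0.42 with 1 array left out, and Mki67 at 0.038 with normexp and -2.46 to 0.0091 with 1 array left out. With the slide as a block, which here equals the value within slide 2, Aurka stood at -0.54, Birc5 at -0.12, Ccna2 at -1.58, Ccnb2 at 1.1 and Nusap1 at 0.019. Leaving out 1 array gave -0.55 to 1.33 for Ccna2, -1.78 to 0.37 for Ccnb2, -0.80 to 0.45 for Cdc20 and -0.18 to 0.014 for Nusap1. In NrasG12D/+ against Nras+/+ HSCs, Smc4 stood at -0.32 with the mean of probes and Foxm1 at -0.18 with the slide as a block or within slide 1. Leaving out 1 array gave -0.63 to 1.48 for Ccnb2, -0.80 to 0.025 for Aurka, -0.46 to 0.84 for Cdc20, -0.35 to 0.44 for Foxm1 and -0.31 to 0.72 for Smc4. The cause of these turns was not tested. Where leaving out 1 array left a genotype with 1 sample, that sample was assumed to vary like the other groups.

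With the replicate number as a block, Birc5 stood at -0.18, Ccnb2 at 0.63 and Cdc20 at 0.36 in NrasG12D/G12D against Nras+/+ HSCs, and Foxm1 at -0.16 in NrasG12D/+ against Nras+/+ HSCs. This replicate block left 0 genes called in each comparison and members' medians of -0.69, -0.16 and -0.24 in NrasG12D/G12D against Nras+/+, NrasG12D/+ against Nras+/+ and NrasG12D/G12D against NrasG12D/+ HSCs.

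The medians of the other lists under every setting, and the bounds with 1 array left out, were added after the data were seen. For the APC/C list they ran from 0.89 to 2.26 in NrasG12D/+ against Nras+/+ HSCs, from 0.18 to 1.48 in NrasG12D/G12D against Nras+/+ HSCs and from -1.38 to -0.51 between the mutant genotypes. Signal over background limits the set: 15 of the 48 members could not be tested, and 18 of the 33 tested members were below background on at least 1 array.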
